A study of Arabidopsis thaliana with 44 samples.

Results

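The comparison described is that of wild-type (WT) Arabidopsis seedlings 12 h after HZE radiation with unirradiated WT seedlings of day 1. The 4 arrays were chosen by their sample titles, 2 of each group, out of 44 arrays in the series. HZE stands for heavy particles of high charge and energy, here accelerated iron nuclei, which leave dense tracks of ionised molecules in a cell. The irradiated seedlings received 30 Gy at 2.5 Gy per min, over approximately 12 min. They were 5 days old and were sampled at 1:09 am of day 2. The unirradiated seedlings were also 5 days old and were sampled at 10:45 am of day 1. All plants grew at 21 °C with a 16 h day, and each RNA sample pooled 30 to 40 whole plants. The labels do not state which hours were lit. Radiation and time of day therefore change together between the groups and cannot be told apart in this comparison.

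Further groups were used to show where these seedlings differed. WT seedlings 6 h after the same HZE dose were sampled at 7:24 pm, and WT seedlings 12 h after 100 Gy of gamma rays, given at 7 Gy per min, at 8:40 pm. Both groups were 5 days old. WT seedlings 1.5 and 3 h after HZE, also 5 days old, were sampled at 2:39 pm and 4:09 pm. Those of 24 h after HZE were 6 days old and sampled at 1:09 pm. Unirradiated WT seedlings of day 2, 6 days old, were sampled at 9:15 am. Seedlings of atm-1, which carry a mutation in ATM, were sampled 12 h after HZE and unirradiated on day 1 at the same clock times and age as WT. Unirradiated atm-1 seedlings of day 2 were also used, 6 days old and sampled at 9:15 am. HZE was given in 2 runs, and the run of each replicate is not stated. ATM itself was not analysed here, so the genotype labels were not checked on the mutated gene.

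Dense tracks of damage break both strands of DNA at once. In plants the ATM kinase senses such breaks and, through the transcription factor SOG1, turns on repair genes and turns off genes of cell division. Many plant genes also follow the day through the circadian clock, which times starch use, photosynthesis and cold-regulated genes to the night or the day. A separate set of rapid stress genes, among them zinc finger, WRKY and calmodulin-like genes, rises within minutes of touch, wounding, cold or oxidants.

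Values are log2 expression values per gene, so a difference of 1 is a 2-fold change. Replicates correlated at 0.995 in WT HZE 12 h and 0.996 in WT unirradiated day 1 across probe sets, and array medians over the series ran from 5.73 to 5.98. Changes were tested with limma, with the standard error (SE) of a fit to all arrays, and a gene was called at a Benjamini-Hochberg adjusted p under 0.05 over 13355 genes. Of 4 measured markers of leaf mesophyll, 2 were called lower after HZE, LHCB4.2 at 9.55 against 12.08 and RCA at 13.83 against 14.10, while LHCB4.1 stood at 13.15 against 13.02 and LHCB4.3 at 7.54 against 7.39. Of 4 stomatal markers SPCH was called lower, at 4.60 against 5.05, and STOMAGEN stood at 9.07 in both. The root hair markers EXPA7 and EXPA18 stood at 5.45 and 5.55 after HZE against 6.19 and 5.71. EXPA7 was called lower, but not when WT HZE 12 h replicate 1 or either day 1 control array was left out. Whether the make-up of the seedlings changed was not tested. In these whole-seedling samples fewer cells of a type and less RNA per cell cannot be told apart.

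At 12 h after HZE, 1816 genes were higher than in the day 1 control (13.6% of genes tested) and 2060 were lower (15.4%). Counts within gene lists against day 1, given below, are to be read beside these shares. All gene lists were written with earlier results of these data known. Their directions and counts, in any comparison below, are not independent evidence. At least 2-fold changes were seen in 397 higher (2.97%) and 352 lower genes (2.64%). The median change over all genes was log2 -0.02. After cyclic loess scaling the larger direction turned, with 2149 genes higher and 1898 lower. Against the control of day 2, 1614 genes were higher (12.1%) and 1781 were lower (13.3%).

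The gene with the largest rise was AT3G62550, of the universal stress protein family, at 12.33 and 12.06 after HZE against 5.14 and 5.75 in the day 1 control. It rose 108-fold, by log2 6.75 (SE 0.18, adjusted p 1.38e-22), and both irradiated arrays lay far above both controls. The zinc finger repressor gene STZ, of the rapid stress response, stood at 11.41 and 11.34 against 6.78 and 6.14, a rise of log2 4.92 (SE 0.46, adjusted p 6.41e-10). CCL, an mRNA known for control of its stability by the clock, stood at 12.47 and 12.30 against 7.36 and 7.60, a rise of log2 4.91 (SE 0.13). The calmodulin-like gene CML38 stood at 9.22 and 9.66 against 5.29 and 5.13, a rise of log2 4.22 (SE 0.40). In each of these genes the groups were separated by several times the gap between replicates. That both irradiated arrays lay beyond both controls was a condition for naming the 12 highest and 12 lowest genes. The other 8 of the 12 largest rises were AT4G27652, AT4G29780, AT5G35735, AT4G27654, AT3G02840, AT4G30650, AT3G10930 and AT4G27657, for which the files give no name, with changes of log2 5.46 down to 4.08. Among them AT5G35735 stood at 10.09 and 10.26 against 5.25 and 5.29 on day 1 and 6.98 and 6.17 on day 2. AT4G27654 stood at 8.32 and 9.20 against 4.36 and 3.91 on day 1 and 7.48 and 6.32 on day 2. The unirradiated seedlings of day 2 lay between the other groups for both genes.

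The gene with the largest fall was AT1G55960, at 6.01 and 5.90 after HZE against 10.79 and 10.86 in the control. It was 29.3-fold lower, with a log2 change of -4.87 (SE 0.16, adjusted p 4.73e-20). THI2.2, which encodes a thionin, a small antimicrobial peptide, stood at 7.45 and 7.32 against 11.15 and 11.18, a change of log2 -3.78 (SE 0.14). EXPA8, an expansin that loosens cell walls, stood at 7.34 and 5.76 against 9.90 and 10.17, a change of log2 -3.48 (SE 0.43, adjusted p 1.22e-07). The irradiated EXPA8 arrays lay far from each other, with both below the controls as the rule for naming required. The other 9 of the 12 largest falls were genes given by locus code only, from AT4G17245 at log2 -3.30 and AT1G69160 at -3.26 to AT3G06070 at -2.88. AT1G69160 stood at 4.08 and 4.22 after HZE, 7.26 and 7.58 on day 1 and 7.38 and 7.73 on day 2. AT3G62950 stood at 3.62 and 3.44 after HZE, 6.51 and 6.32 on day 1 and 6.32 and 6.43 on day 2. For both genes the irradiated arrays lay far below both unirradiated days. AT2G41250, AT5G47610, AT5G35970, AT5G22390 and AT3G50560 fell by between log2 3.09 and 2.89.

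**Figure D1:**
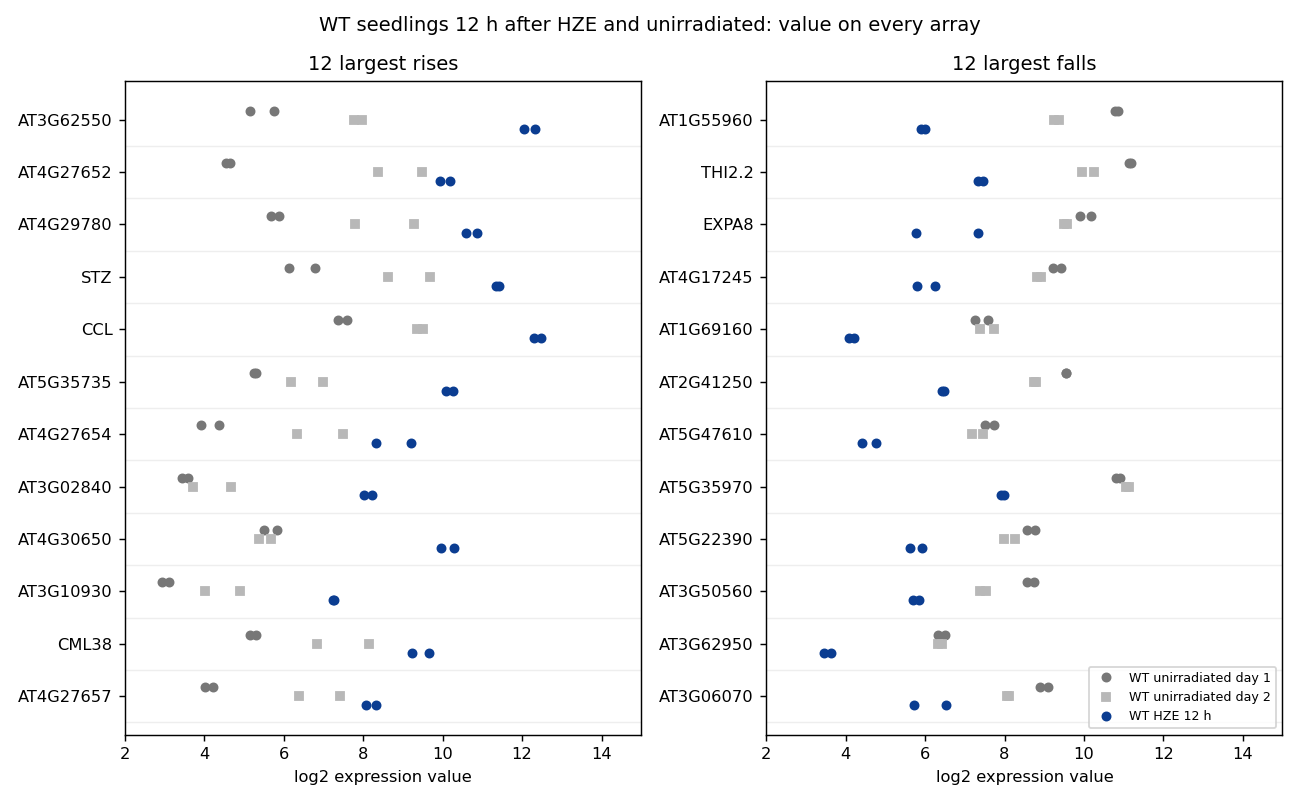
Log2 expression value on every array for the 12 genes with the largest rises (left) and the 12 with the largest falls (right), in WT 12 h after HZE and in unirradiated WT of day 1 and day 2 (2 arrays each). Separation of the irradiated arrays from the day 1 controls was a condition for choosing these 24 genes. For AT4G27652 the day 2 controls lie between, at 9.47 and 8.36.

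For some genes the control day decided the call. In AT4G27652 the unirradiated seedlings of day 2 stood at 9.47 and 8.36, and day 1 at 4.55 and 4.63, against 9.92 and 10.18 after HZE. Its rise of log2 5.46 over day 1 (adjusted p 2.35e-09) became 1.14 over day 2 and was no longer called (adjusted p 0.14). AT4G27657 likewise fell short over day 2, at log2 1.29 (adjusted p 0.0581). STZ remained higher over day 2, by log2 2.22 (adjusted p 0.000389), and AT3G62550 by 4.33.

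Rapid stress genes were higher as a group in WT 12 h after HZE. The list was written with earlier results of these data known, so its direction here is not independent evidence. Of 15 measured, 12 rose and the other 3 were not called, with changes from log2 -0.00 to 5.46 and a median of 2.92, beside log2 -0.02 for all genes. AT4G29780 stood at 10.59 and 10.87 against 5.89 and 5.68, a rise of log2 4.95 (SE 0.57, adjusted p 3.91e-08). AT3G02840 stood at 8.21 and 8.01 against 3.57 and 3.43, a rise of log2 4.61 (SE 0.39). Both genes were among the 12 largest rises, for which no overlap with the day 1 control arrays was a condition. Over the day 2 control 12 of 15 were higher, without AT4G27652, and the median was log2 1.86. Averaged over the list, the 12 h arrays stood at 7.97 and 7.95, the day 1 controls at 5.35 and 5.21, and the day 2 controls at 6.65 and 6.03. The 2 unirradiated days thus differed from each other for this list, and the HZE 12 h arrays were above both.

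A list of 12 early radiation genes was also followed. It was drawn up from the response of these same plants at other times, so its direction here is not independent evidence. All 12 were higher, by log2 1.58 to 4.04 with a median of 2.90. AT5G60250, a zinc finger gene, stood at 8.29 and 8.20 against 4.19 and 4.22, a rise of log2 4.04 (SE 0.14, adjusted p 8.58e-20). AT2G45460, whose product carries an FHA domain that binds phosphorylated proteins, stood at 8.88 and 8.75 against 5.59 and 5.55, a rise of log2 3.25 (SE 0.16). AT4G22960 rose by log2 3.38 and AT2G47680 by 3.34. In these genes the day 2 controls lay close to the day 1 controls, for AT5G60250 at 3.83 and 3.76, and the median over day 2 was log2 2.67. The mean level of the list was 9.16 and 9.37 at 1.5 and 3 h, 8.35 at 6 h, 7.93 at 12 h and 7.20 at 24 h after HZE, beside 5.14 in the day 1 control. At 12 h the list was therefore below its level of the first hours and still above both unirradiated groups.

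Of 19 measured genes of DNA repair and checkpoints, 5 rose (26.3%, beside 13.6% of all genes) and 0 fell (beside 15.4%). The other 14 were not called, and the median was log2 0.01. ATMND1, which takes part in strand exchange between homologous chromosomes, stood at 5.66 and 5.89 against 4.17 and 4.22, a rise of log2 1.58 (SE 0.16, adjusted p 2.98e-09). This gene is also a member of the early radiation list. POLH, a polymerase that copies past ultraviolet lesions, rose by log2 0.67 (SE 0.13, adjusted p 0.000207), but by 0.31 over day 2 (adjusted p 0.0959). Leaving out WT HZE 12 h replicate 1 left 3 of the 5 calls in number, leaving out WT unirradiated day 1 replicate 1 left 2 and its replicate 2 left 3, and the control of day 2 gave 3.

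Genes of mitosis were lower 12 h after HZE. This list and the histone list below were also written with earlier results of these data known. Their direction is therefore not independent evidence. Of 15 measured, 11 fell and no member rose, with a median of log2 -0.77. AUR2, an Aurora kinase that acts on dividing chromosomes, stood at 4.78 and 4.53 against 6.38 and 6.86, a change of log2 -1.97 (SE 0.18, adjusted p 5.22e-10). 3xHMG-box2, a protein that binds mitotic chromosomes, stood at 5.87 and 5.72 against 7.72 and 7.54, a change of log2 -1.84 (SE 0.21). AUR1, a second Aurora kinase, stood at 6.25 and 6.02 against 7.67 and 7.52, a change of log2 -1.46 (SE 0.16). All 3 were below both unirradiated days. FBL17, an F-box protein that promotes DNA replication by removing cell cycle inhibitors, fell by log2 0.90 (SE 0.12). Against day 2, 10 of 15 mitosis genes were lower, with a median of log2 -0.53.

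Of 7 histone genes 4 fell and 1 rose, with a median of log2 -0.87. HTB1, a histone H2B gene, stood at 7.93 and 7.97 against 9.31 and 9.20, a change of log2 -1.31 (SE 0.13, adjusted p 4.58e-09). HTB2, a second H2B gene, stood at 6.29 and 6.00 against 7.41 and 7.41, a change of log2 -1.26 (SE 0.15). HTR12, the histone H3 of centromeres and also on the mitosis list, fell by log2 0.87 (SE 0.15). Against day 2, 5 of 7 histone genes were lower. The 1 higher histone gene was not called without WT HZE 12 h replicate 1 or without either day 1 control array, where the counts were 0 higher and 4 lower.

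Genes of DNA replication depended on the control day. PRL, which encodes a subunit of the complex that unwinds DNA at replication origins, stood at 7.24 and 7.25 against 8.08 and 8.00 on day 1 and 6.90 and 6.77 on day 2. It was thus lower than day 1 by log2 -0.80 (adjusted p 6.64e-06) and higher than day 2 by 0.41 (adjusted p 0.0127). Over the list of 6, 3 were lower than on day 1, while over day 2, 3 were higher and 1 was lower.

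Of 3 measured evening clock genes 2 rose and 1 fell. CCL, described above, was 1 of the rises. COR27, a regulator of the clock and of cold tolerance that rises in the evening, stood at 7.62 and 7.31 against 3.72 and 3.59, a rise of log2 3.81 (SE 0.15, adjusted p 9.98e-19). GI, a clock gene that peaks late in the day, stood at 6.51 and 6.35 against 6.84 and 6.75. Its change of log2 -0.37 (adjusted p 0.0257) was not called without WT HZE 12 h replicate 2 (adjusted p 0.2) or without WT unirradiated day 1 replicate 1 (0.15) or 2 (0.052). In atm-1 COR27 and CCL rose by log2 4.00 and 4.89, and neither difference between genotypes was called (adjusted p 0.79 and 0.987).

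Both measured genes of starch breakdown, which feeds leaves at night, were higher. AT5G26570, which encodes phosphoglucan water dikinase and marks starch for breakdown, stood at 10.19 and 10.28 against 7.64 and 7.80, a rise of log2 2.52 (SE 0.16, adjusted p 8.14e-14). DPE1, an enzyme that rearranges short glucose chains inside the plastid, stood at 8.73 and 8.42 against 6.46 and 6.49, a rise of log2 2.10 (SE 0.13). Both were separated from both unirradiated days, by log2 3.02 and 2.34 over day 2. The enzymes of starch synthesis SBE2.2 and APL3 differed from day 1 by log2 -0.10 and 0.39 and were not called, while APL3 was higher than day 2 by 0.78 (adjusted p 0.014).

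Nuclear genes of photosynthesis and chlorophyll synthesis moved in both directions. LHCB4.2, a light-harvesting protein of photosystem II, stood at 9.74 and 9.35 against 12.10 and 12.05, a change of log2 -2.53 (SE 0.11, adjusted p 4.5e-17). PORB, which reduces the chlorophyll precursor in light, stood at 10.98 and 10.99 against 8.74 and 8.76, a rise of log2 2.24 (SE 0.13). CHLM, an enzyme of an earlier step, fell by log2 0.74 (SE 0.10). Of 10 nuclear genes of photosynthesis 2 rose and 3 fell, and of 10 genes of chlorophyll synthesis 2 rose and 4 fell. Cyclic loess scaling turned the first count to 4 higher and 1 lower, and with the control of day 2 it was 0 higher and 4 lower. Its 2 rises became 0 when WT HZE 12 h replicate 1 was left out and 1 for each of the other 3 arrays. The 4 falls of chlorophyll genes became 2 when WT HZE 12 h replicate 2 or WT unirradiated day 1 replicate 2 was left out. HEMA2, which makes the first committed intermediate of the pathway, rose by log2 0.99 (SE 0.15). HEME2, a decarboxylase of a later step, changed by log2 -0.96 (SE 0.12). The smaller calls of photosynthesis rested on single arrays or on the scaling. PSBW, a photosystem II subunit, differed by log2 0.31 and was not called without WT HZE 12 h replicate 1 or 2 or WT unirradiated day 1 replicate 1. PSBY, another subunit, differed by log2 -0.30 and was not called without WT HZE 12 h replicate 2 or after cyclic loess. RCA, which keeps the carbon-fixing enzyme Rubisco active, differed by log2 -0.27 and was not called after cyclic loess, at -0.11. The sister gene LHCB4.1 changed by log2 0.13 and was not called (adjusted p 0.322).

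Genes of branched-chain amino acid breakdown, a source of energy when sugar is short, were followed next. Of 10 measured, 4 fell and 1 rose, with a median of log2 -0.45. MCCA, a subunit of methylcrotonyl-CoA carboxylase in leucine breakdown, stood at 7.51 and 6.72 against 8.75 and 8.75, a change of log2 -1.64 (SE 0.27, adjusted p 1.29e-05). IVD, the dehydrogenase of the preceding step, stood at 6.91 and 6.51 against 7.97 and 7.72, a change of log2 -1.14 (SE 0.19). The mean level of the list was 9.56 and 9.78 at 1.5 and 3 h after HZE, 7.17 at 6 h and 7.11 at 12 h, beside 7.52 in the day 1 control. Without WT HZE 12 h replicate 1 the counts were 6 lower and 0 higher, and with the control of day 2 the same, whereas after cyclic loess scaling 4 were lower and 3 higher. Without WT HZE 12 h replicate 2 the median was log2 -0.24.

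**Figure D2:**
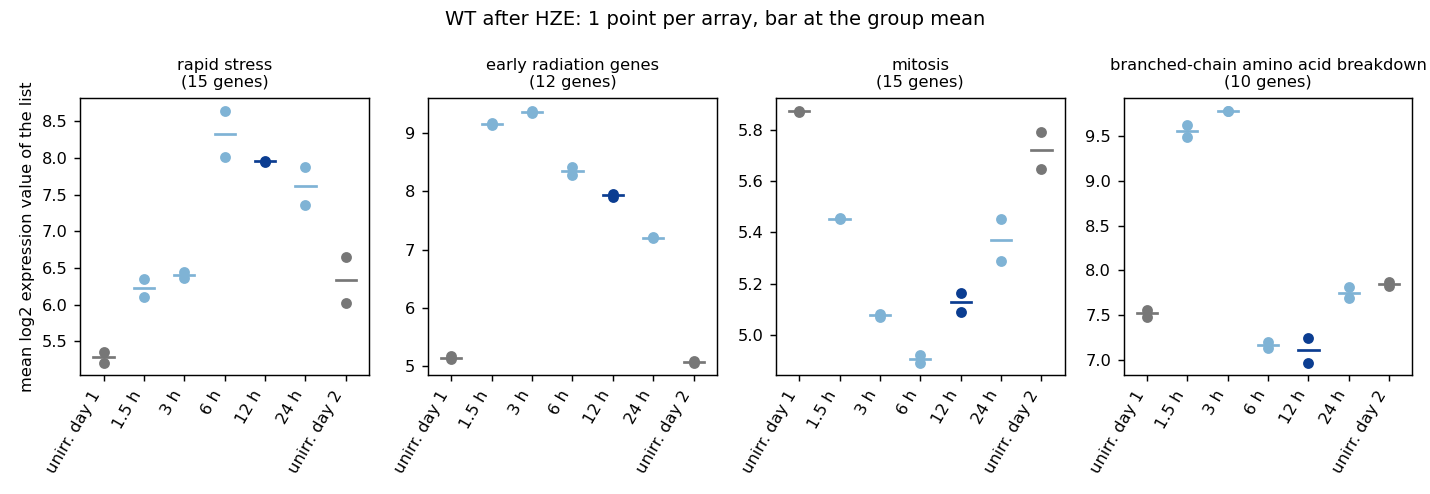
Mean log2 expression value of 4 gene lists in WT over time after HZE (light blue, 12 h in dark blue) and in the unirradiated groups (grey), 1 point per array and a bar at the group mean, on vertical axes that differ between lists. Rapid stress genes reach 8.33 at 6 h and 7.96 at 12 h, early radiation genes decline from 9.37 at 3 h to 7.93, mitosis genes stand at 5.13 at 12 h below 5.87 in the day 1 control, and amino acid breakdown genes are at 7.11.

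Cold-regulated genes were among the higher genes, with 3 of 6 on the list of cold and dehydration genes higher and 1 lower. COR15B, which encodes a protein that protects chloroplast membranes in frost, stood at 8.47 and 9.29 against 5.16 and 5.19, a rise of log2 3.71 (SE 0.19, adjusted p 9.99e-16). COR15A, its close relative, stood at 8.59 and 8.79 against 7.14 and 7.60, a rise of log2 1.32 (SE 0.24). AT4G30650 stood at 9.96 and 10.29 against 5.83 and 5.49, a rise of log2 4.46 (SE 0.22), and at 5.67 and 5.37 on day 2. COR15A and COR15B are close paralogs, so a probe set of one could take up RNA of the other, which was not tested. LEA4-5, a protein made as seeds dry, was the gene called lower, with a change of log2 -0.89 (SE 0.23, adjusted p 0.00321). That call was lost without WT HZE 12 h replicate 1 or without WT unirradiated day 1 replicate 1.

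Genes that remodel the cell wall moved both ways. Of 29 expansin and XTH genes, 3 rose and 10 fell, but 5 rose and 4 fell against day 2. The 10 became 5 without WT HZE 12 h replicate 1 and 6 without WT unirradiated day 1 replicate 2. EXLA1, an expansin-like gene, stood at 9.69 and 10.13 against 6.43 and 6.56, a rise of log2 3.41 (SE 0.25, adjusted p 2.14e-12). XTH18, of an enzyme family that cuts and rejoins xyloglucan, stood at 8.46 and 8.83 against 6.84 and 6.54, a rise of log2 1.96 (SE 0.21). Both were also higher than on day 2, by log2 2.45 and 1.66. XTH32, of the same enzyme family, changed by log2 -1.63 (SE 0.13) from day 1 and by -0.31 from day 2, where it was not called (adjusted p 0.0736).

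Small lists of nutrient and hormone genes come next. Of 3 genes tied to sugar shortage and darkness, 1 rose and 1 fell. BZIP53, a transcription factor of the low-energy response, stood at 10.41 and 10.46 after HZE against 9.93 and 9.69 on day 1 and 9.83 and 9.79 on day 2, a rise of log2 0.63 (SE 0.11, adjusted p 4.1e-05). AKINBETA1, a subunit of the SnRK1 energy-sensing kinase, changed by log2 -0.69 (adjusted p 0.00802), a call lost without WT HZE 12 h replicate 2 or WT unirradiated day 1 replicate 2. PPDK, an enzyme that remakes a precursor of sugars, stood at 7.17 and 7.07 against 7.05 and 7.38 and was not called.

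Of 3 iron response genes 1 was higher than on day 1 and 3 were higher than on day 2. AT1G47400 stood at 8.50 and 8.83 after HZE, 7.02 and 7.71 on day 1 and 5.19 and 5.27 on day 2, a rise of log2 1.30 over day 1 (SE 0.28, adjusted p 0.00052) and of 3.43 over day 2. BHLH101, a transcription factor of iron uptake, stood at 7.01 and 6.51 after HZE, 7.07 and 7.38 on day 1 and 5.12 and 5.05 on day 2. PYE, a regulator of iron balance in roots, differed by log2 0.46 from day 1 (adjusted p 0.0539) and was called without WT unirradiated day 1 replicate 2. In AT1G47400 and BHLH101 the 2 unirradiated days were farther apart from each other than the irradiated seedlings were from day 1.

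Of 8 genes of jasmonate and defence 2 rose and 1 fell, THI2.2 and OPCL1 among them. MYC3, a transcription factor of jasmonate signalling, was the other, at log2 0.64 (adjusted p 0.000907), and was not called without WT unirradiated day 1 replicate 1 or over day 2. Of 15 auxin genes of the IAA, GH3 and YUC families 1 rose and 3 fell. Their share called in either direction was 26.7%, beside 3876 of 13355 genes called in either direction (13.6% higher and 15.4% lower). GH3.17, which joins auxin to an amino acid, stood at 8.11 and 8.04 against 8.94 and 8.97, a change of log2 -0.88 (SE 0.10, adjusted p 5.54e-08). HAT2, a homeodomain factor induced by auxin and shade, stood at 8.00 and 7.59 against 9.03 and 8.80, a change of log2 -1.12 (SE 0.18). Both were also lower than on day 2. GH3.9 at log2 -0.43 was not called without WT HZE 12 h replicate 2 or WT unirradiated day 1 replicate 2.

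Glucosinolate genes, whose products are defence compounds of this plant family, showed 0 calls by limma against day 1 in 4 genes, and 0 of 4 at an unadjusted p under 0.05. Against day 2, 3 of 4 were higher. Of 3 heat shock genes 1 rose, AT2G29500 at log2 0.60 (adjusted p 0.03), a call lost without WT HZE 12 h replicate 2 or WT unirradiated day 1 replicate 2. Fes1A, a partner of the chaperone HSP70, differed by log2 -0.19 and was called lower only without WT unirradiated day 1 replicate 2. Of 4 genes of the stomatal lineage SPCH, which starts that lineage, was lower by log2 -0.46 (adjusted p 0.00355), and the call was lost without WT HZE 12 h replicate 1. The morning clock gene list held 1 measured gene, AT5G52660, which differed by log2 -0.19 (adjusted p 0.136).

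Sugar transporters and other families showed single large changes. SWEET2, a sugar carrier of the vacuole membrane, stood at 7.27 and 7.49 against 9.45 and 9.46, a change of log2 -2.07 (SE 0.15, adjusted p 2.34e-12). SWEET14, a sugar carrier of the same family, stood at 5.60 and 5.94 against 4.27 and 4.08, a rise of log2 1.60 (SE 0.13), and SWEET11, which passes sucrose out of cells beside the phloem, changed by log2 -1.32 (SE 0.11). In all, 2 of 14 SWEET genes rose and 4 fell. OPCL1, an enzyme of jasmonate synthesis, stood at 7.91 and 8.69 against 5.82 and 5.76, a rise of log2 2.51 (SE 0.39, adjusted p 6.01e-06). BGLU44, a beta-glucosidase gene, rose by log2 2.43 (SE 0.22). Of 7 tubulin genes 4 rose and 1 fell, with TUB9 at log2 1.13 (SE 0.10) and TUB7 at -0.71 (SE 0.10). Tubulins form the microtubules. Of 20 beta-glucosidase genes 4 rose and 4 fell, and the falls numbered 1 without WT HZE 12 h replicate 2 or WT unirradiated day 1 replicate 1, and 2 without its replicate 2. Of 22 TBL genes, a family that adds acetyl groups to wall polysaccharides, 2 rose and 3 fell. Their share called in either direction was 22.7%, beside 3876 of 13355 genes called in either direction (13.6% higher and 15.4% lower). TBL26 stood at 7.61 and 7.98 after HZE, 6.71 and 7.03 on day 1 and 5.41 and 4.91 on day 2, a rise of log2 0.93 over day 1 that was not called without WT HZE 12 h replicate 2 or WT unirradiated day 1 replicate 1. Leaving out those same arrays gave 1 higher and 1 lower TBL gene, and 1 higher and 2 lower.

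Larger families and organelle genes followed. Of 51 genes of UGT glycosyltransferases, 11 rose and 5 fell, with UGT71B1 at log2 1.52 and the cytokinin glucosylation gene UGT76C2 at -1.40. The rises numbered 7 when WT HZE 12 h replicate 2 was left out and 7 when WT unirradiated day 1 replicate 1 was, where 3 fell. Of 14 glutathione transferase genes 5 rose and 2 fell, led by GSTU18 at log2 1.26, which was 0.24 over day 2 and not called there (adjusted p 0.123). The falls numbered 0 when either irradiated array or WT unirradiated day 1 replicate 1 was left out, and 1 when its replicate 2 was. Of 23 cytochrome P450 genes measured, 3 rose (13.0%, beside 13.6% of all genes) and 0 fell, with CYP71B5 at log2 1.39 (SE 0.16). Of 69 plastid-encoded genes 23 rose and 3 fell, with a median of log2 0.19. The 23 rises numbered 15 when WT HZE 12 h replicate 1 was left out, 9 when WT unirradiated day 1 replicate 1 was, and 11 over day 2, and psbM, a small subunit of photosystem II, went from log2 0.83 to -0.01. psbD, which encodes a core protein of that photosystem, stood at 10.64 and 10.98 after HZE, 11.87 and 11.97 on day 1 and 11.02 and 11.31 on day 2. It was lower than on day 1 by log2 -1.11 (SE 0.21, adjusted p 0.000104) and not called over day 2, at -0.36. Of 15 mitochondrion-encoded genes 3 were lower than on day 1 (20.0%, beside 15.4% of all genes), and limma called 0 over day 2. nad1, of respiratory complex I, stood at 4.63 and 4.66 after HZE, 5.50 and 5.31 on day 1 and 4.08 and 4.67 on day 2. The counts of mitochondrial genes lower than day 1 ran from 2 to 4 with 1 array left out, and were 2 without WT HZE 12 h replicate 1 or 2 or WT unirradiated day 1 replicate 2.

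Flavonoid genes also depended on the control day. CHIL, a helper protein of flavonoid synthesis, stood at 6.72 and 7.56 after HZE, at 8.59 and 8.48 on day 1, and at 6.24 and 6.62 on day 2. It was lower than day 1 by log2 -1.39 (adjusted p 3.81e-05) and higher than day 2 by 0.71 (adjusted p 0.0303). Of 8 flavonoid genes 3 were lower and 1 higher than on day 1, and 5 were higher and 0 lower than on day 2. The 1 higher gene, UF3GT, was not called without WT HZE 12 h replicate 2 (adjusted p 0.66) or without WT unirradiated day 1 replicate 1 (0.28) or 2 (0.057). Of 11 autophagy genes 3 were higher than on day 1, with ATG8D, a tag of autophagic membranes, at log2 1.42 (SE 0.16), whereas against day 2, 1 was higher and 4 were lower. After cyclic loess scaling 5 were higher than on day 1.

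The change of WT was set beside that of atm-1 sampled at the same clock times, which asks which changes differed between the genotypes. In atm-1, 1165 genes were higher (8.72%) and 1278 lower (9.57%) 12 h after HZE. The total of 2443 was 1617 when atm-1 HZE 12 h replicate 1 was left out, and 1625 when atm-1 unirradiated day 1 replicate 1 was. The difference between the changes was called in 626 genes (4.69%), positive, meaning a larger rise or smaller fall in WT, in 362 (2.71%) and negative in 264 (1.98%). Leaving out WT unirradiated day 1 replicate 1 gave 417 genes, leaving out atm-1 HZE 12 h replicate 2 gave 368, and leaving out atm-1 unirradiated day 1 replicate 2 gave 372.

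From the day 1 controls rapid stress genes rose more in WT than in atm-1, but from the day 2 controls most of these differences were not called. Of 15, 10 had a positive difference and none a negative one from day 1, with a median change in WT of log2 2.92 beside 0.56 in atm-1. Leaving out atm-1 HZE 12 h replicate 2 gave 5 of 15 positive. With the day 2 controls of each genotype 3 were positive, where over all genes 1.86% were positive and 1.61% negative, and the median difference fell from log2 2.29 to 0.27. For STZ the difference was log2 2.84 from day 1 and -0.85 from day 2 (adjusted p 0.635). For CML38 it was log2 2.94 and 0.16, and for AT4G27652 3.14 and -1.31. The 3 called from both days were AT3G02840, WRKY53 and PUB23, named after their values were seen. AT3G02840 stood at 4.32 and 3.91 in irradiated atm-1, far below its 8.21 and 8.01 in irradiated WT, and the changes differed by log2 4.19 (SE 0.55, adjusted p 7.06e-06), and by 3.50 from day 2. Of genes outside that list, AT5G52050, which encodes the efflux carrier DTX50, stood at 5.70 and 4.99 in irradiated atm-1 and at 8.61 and 9.10 in irradiated WT. Its changes were log2 -0.03 in atm-1 and 3.63 in WT, a difference of 3.66 (SE 0.45), or of 2.93 from day 2. AT1G19380 and AT2G24600, also outside the list, followed with differences of log2 3.43 and 3.29, or of 1.57 (adjusted p 0.0547) and 2.67 from day 2. In all 4 genes the irradiated atm-1 arrays did not reach the irradiated WT arrays. For AT4G29780 the difference of log2 3.71 (adjusted p 0.0042) was not called without atm-1 HZE 12 h replicate 2 (adjusted p 0.058), and from day 2 it was 0.10 (adjusted p 0.979).

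Early radiation genes rose in both genotypes, 12 of 12 in WT and 11 of 12 in atm-1, with medians of log2 2.90 and 1.08. The difference was positive in 11 of 12, and in 10 of 12 from the day 2 controls. Since the list was drawn up from the response of these same plants, these counts are not independent evidence. AT5G60250 stood at 5.03 and 4.44 in irradiated atm-1 and differed by log2 3.24 (SE 0.20, adjusted p 2.92e-12). AT2G45460 stood at 6.05 and 5.96 and differed by log2 2.68 (SE 0.22). ATMND1 was the exception, which rose by log2 1.58 in WT, by 1.08 in atm-1, and had a difference that was not called (adjusted p 0.265). Among repair genes, ATLIG4, the ligase that joins broken DNA ends, stood at 6.41 and 6.22 in irradiated WT and 5.65 and 5.57 in irradiated atm-1, with a difference of log2 0.90 (SE 0.22, adjusted p 0.0119), which from day 2 was 0.44 (adjusted p 0.37).

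Mitosis and histone genes differed in the other direction. Both lists were written with earlier results of these data known, so their counts are not independent evidence. For mitosis genes the median change was log2 -0.77 in WT beside 0.26 in atm-1, and 9 of 15 differences were negative and none positive, with 10 negative from the day 2 controls. 3xHMG-box2 stood at 8.76 and 8.60 in irradiated atm-1 and at 5.87 and 5.72 in irradiated WT. Its changes were log2 1.08 in atm-1 and -1.84 in WT, a difference of -2.93 (SE 0.30, adjusted p 8.99e-08) that was the lowest of all genes called. AUR1 changed by log2 0.05 in atm-1, a difference of -1.51 (SE 0.23). Of histone genes 5 of 7 had negative differences from either control day, and HTB2, at 7.76 and 8.04 in irradiated atm-1, differed by log2 -1.81 (SE 0.22). HTB4, another H2B gene, stood at 9.38 and 9.42 in irradiated WT and 10.49 and 10.42 in irradiated atm-1, and differed by log2 -1.04 (SE 0.13). The 5 became 3 without WT HZE 12 h replicate 2, WT unirradiated day 1 replicate 2, atm-1 HZE 12 h replicate 2 or atm-1 unirradiated day 1 replicate 1. The other genes with the lowest differences were AT3G28320 at log2 -2.42, AT3G28310 at -2.21, AT2G37470 at -2.09, and AT3G19430 at -2.40, which was not called without WT HZE 12 h replicate 2 (adjusted p 0.055) or from day 2 (adjusted p 0.0807).

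**Figure D3:**
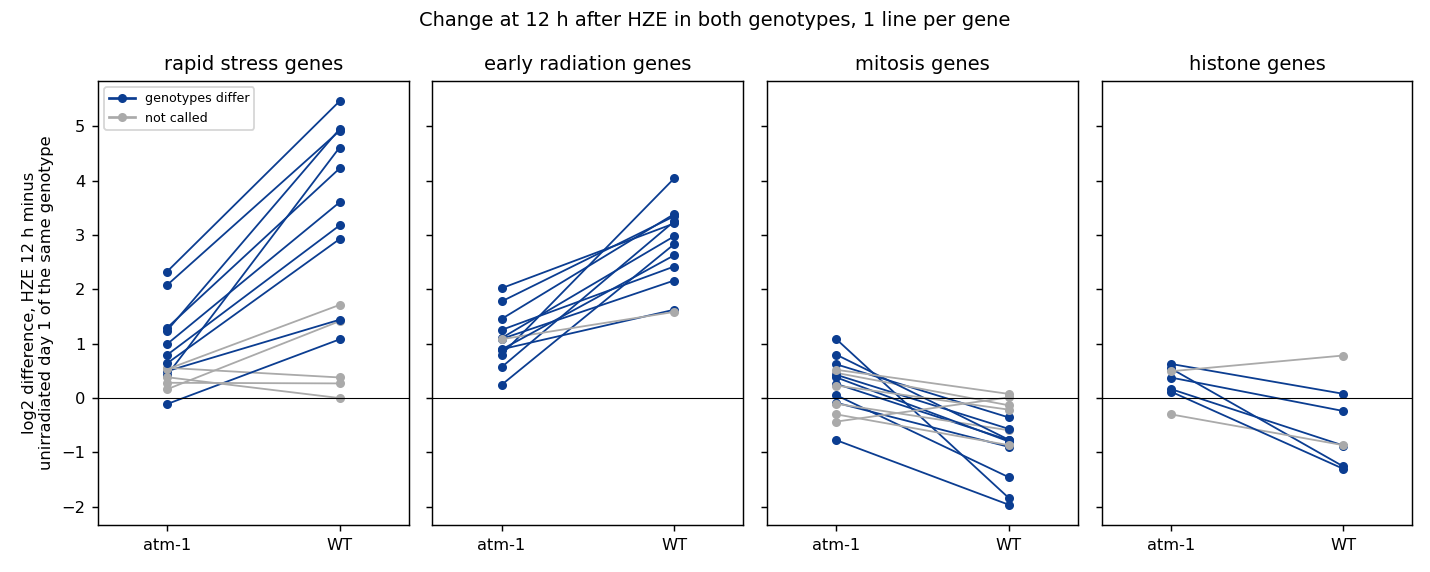
Log2 change 12 h after HZE from the unirradiated day 1 group of the same genotype, in atm-1 (left of each panel) and WT (right), 1 line per gene, blue where the difference between genotypes was called from the day 1 controls; from day 2 only 3 of the 15 rapid stress genes were called. Lines rise toward WT for 10 of 15 rapid stress and 11 of 12 early radiation genes called, and descend for 9 of 15 mitosis and 5 of 7 histone genes called. These lists were written with earlier results of these data known, so the counts are not independent evidence.

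Of 6 cold and dehydration genes 2 differed between genotypes, both negatively, and 1 from the day 2 controls. COR15B stood at 10.52 and 10.64 in irradiated atm-1, above its 8.47 and 9.29 in irradiated WT, and the changes differed by log2 -1.44 (SE 0.27, adjusted p 0.000864). COR15A differed by log2 -1.43 (SE 0.34) from day 1 but by -0.40 from day 2 (adjusted p 0.68), where COR15B differed by -1.38. IAA29, the 1 of 2 shade and growth genes that differed, an auxin response repressor linked to growth in shade, stood at 7.18 and 6.29 in irradiated WT and 4.33 and 4.78 in irradiated atm-1, a difference of log2 2.07 (SE 0.36, adjusted p 0.000319). Its WT rise over day 1 of log2 1.13 was not called without WT HZE 12 h replicate 1 (adjusted p 0.081), and over day 2 it was 0.01 (adjusted p 0.983). XTH18 and SWEET14 had larger rises in WT, by log2 1.54 and 1.30. AT3G62550, AT4G30650 and DPE1 changed by log2 6.48, 4.56 and 2.06 in atm-1, and their differences of 0.27, -0.09 and 0.04 were not called. Their standard errors were 0.26, 0.31 and 0.19. AT3G62950 stood at 4.98 and 5.59 in irradiated atm-1 and 3.62 and 3.44 in irradiated WT, a smaller fall in atm-1, with a difference of log2 -1.81 (SE 0.33, adjusted p 0.000675). HEMA2 had a larger rise in WT, by log2 0.84, and HEME2 a larger fall, by -0.71, and neither was called from day 2, at 0.53 and -0.46.

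Against WT 6 h after HZE, sampled at 7:24 pm, 1283 genes were higher at 12 h (9.61%) and 1383 lower (10.4%). The highest was AT1G06830, at 8.51 and 9.10 at 12 h and 6.12 and 5.28 at 6 h and up by log2 3.11 (adjusted p 2.19e-12). Its day 1 control stood at 8.93 and 8.99 and its arrays at 1.5 h and 3 h after HZE at 4.98 and 5.19 and at 4.96 and 5.07, so it was low at all 3 earlier times and near the control at 12 h. BCAT4, of the chain elongation that starts glucosinolate synthesis, stood at 8.29 and 9.05 at 12 h and 6.49 and 5.07 at 6 h, a difference of log2 2.89 (adjusted p 0.00178). That call was lost without WT HZE 6 h replicate 2 (adjusted p 0.073). GSTU20, a glutathione transferase of the same pathway, stood at 10.23 and 10.73 against 7.71 and 7.55, a difference of log2 2.85 (adjusted p 1.86e-08). At 12 h both genes were nearer to the day 1 control than to 6 h, since in the control BCAT4 stood at 9.12 and 9.13 and GSTU20 at 10.92 and 10.88. The day 2 control had means of 6.78 for BCAT4 and 9.59 for GSTU20, below the 12 h means of 8.67 and 10.48. AAH, which releases ammonium from allantoate, stood at 8.20 and 8.22 at 12 h and 5.87 and 5.90 at 6 h, a difference of log2 2.33. AT5G01740 was higher by log2 2.66. The 3 iron response genes were all higher at 12 h than at 6 h, by log2 0.98 to 1.84.

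Among genes lower at 12 h than at 6 h, GI led with log2 -3.25 (adjusted p 7.6e-18). EXPA8 followed the same direction with log2 -3.03 (adjusted p 2.66e-06), as did AT1G54050 at -3.06, AT5G62360 at -2.89 and AT1G15330 at -2.68. Rapid stress genes had a median difference of log2 -0.35 from 6 h, with 4 lower and 1 higher of 15. The 4 ranged from 0 without WT HZE 6 h replicate 1 to 5 without its replicate 2, with 2 and 1 without WT HZE 12 h replicate 1 and 2. COR27 was higher than at 6 h by log2 1.86 (adjusted p 1.1e-10), while CCL differed by -0.14 (adjusted p 0.53). LHCB4.2 was lower than at 6 h by log2 -2.41 (adjusted p 1.41e-15). Fes1A stood at 6.93 and 6.66 at 12 h and 8.18 and 8.01 at 6 h, a difference of log2 -1.30 (adjusted p 6.96e-07). Of the mitosis genes 3 of 15 were higher at 12 h than at 6 h and 1 was lower, with a median of log2 0.16, beside 0.03 over all genes, and the 1 lower gene was lost when any 1 of these 4 arrays was left out.

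**Figure D4:**
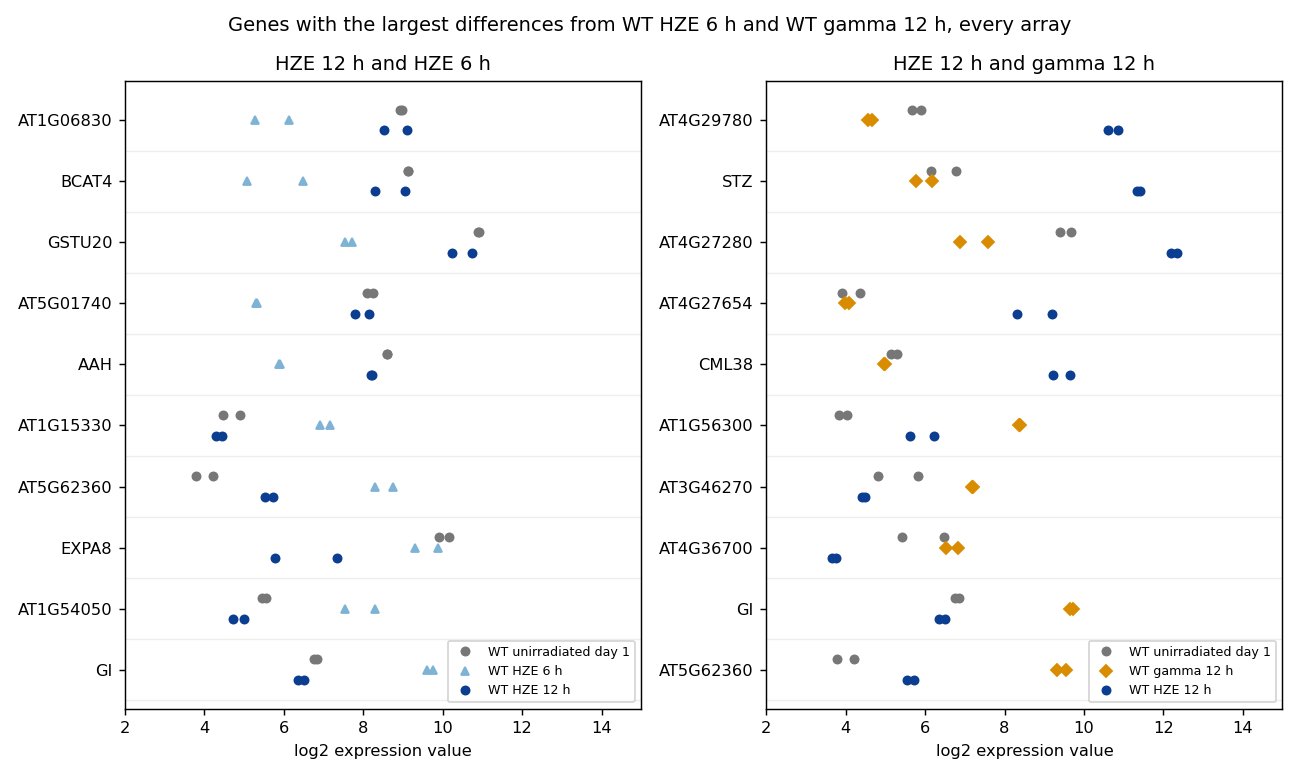
Log2 expression value on every array for the 5 genes highest and 5 lowest in WT HZE 12 h against WT HZE 6 h (left) and against WT gamma 12 h (right), with unirradiated WT of day 1 (2 arrays per group). For BCAT4 and GSTU20 the 12 h arrays lie near the day 1 control and above the 6 h arrays. For STZ and CML38 the gamma arrays lie near the day 1 control and below the HZE arrays. The day 2 controls are not shown.

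WT 12 h after gamma was sampled at 8:40 pm of day 1, so clock time and dose differ together with the kind of radiation and cannot be told apart. Of all genes 1186 were higher after HZE (8.88%) and 1316 lower (9.85%). Rapid stress genes were higher after HZE in 12 of 15, with a median difference of log2 3.42. STZ stood at 11.41 and 11.34 after HZE and at 6.16 and 5.78 after gamma, a difference of log2 5.40 (SE 0.46, adjusted p 2.78e-10). Of the list AT4G29780 differed by log2 6.12 and CML38 by 4.47, and outside it AT4G27280 by 5.04 and AT4G27654 by 4.73. The mean level of the rapid stress list was 5.17 and 4.97 on the gamma arrays, no higher than on the day 1 controls.

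Other groups of genes varied in how far they differed between the radiations at 12 h. The gene lists were written with earlier results of these data known, so their counts here are not independent evidence. For the 15 mitosis genes the median difference was log2 -0.01, and limma called 0 of them, with 2 of 15 at an unadjusted p under 0.05 beside 28.3% of all genes. Early radiation genes were higher after HZE by a median of log2 0.51, with 10 of 12 called, a count of 6 when WT HZE 12 h replicate 1 was left out and of 4 when WT gamma 12 h replicate 1 was. AT3G62550, CCL and AT5G26570 differed by log2 0.18, 0.03 and -0.15 and were not called. Genes lower after HZE included AT5G62360 at log2 -3.81, GI at -3.26, AT4G36700 at -2.97, AT3G46270 at -2.75 and AT1G56300 at -2.45. Of these, AT5G62360 and AT1G56300 were themselves higher after HZE than in the day 1 control, by log2 1.63 and 2.00. AT5G62360 stood at 9.33 and 9.54 after gamma, 8.74 and 8.29 6 h after HZE, 5.53 and 5.72 12 h after HZE and 4.21 and 3.78 in the control. For this gene the gamma 12 h and HZE 6 h arrays were thus above the HZE 12 h arrays, and these above the day 1 control. Clock time differs between these groups together with radiation and hours after it, and these cannot be told apart. PPDK stood at 5.27 and 5.05 after gamma and 7.17 and 7.07 after HZE, a difference of log2 1.95 (SE 0.25, adjusted p 4.18e-07). Its unirradiated WT means were 7.22 on day 1 and 7.30 on day 2, so the gamma arrays were those that stood apart. Of 69 plastid-encoded genes 18 were higher after HZE than after gamma (26.1%, beside 8.88% of all genes) and 0 were lower. The 18 became 9 when WT HZE 12 h replicate 1 was left out, 8 for its replicate 2, 27 for WT gamma 12 h replicate 1 and 1 for its replicate 2.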

How the data were processed

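The authors deposited log2 expression values, 1 Affymetrix array per sample, made with GCOS 1.2 and RMA in affy per the submitters' processing notes. RMA settings are not given in the sources used here. Of 22810 probe sets, 64 controls were left out. Of the 22746 kept, 13513 had 1 gene in the platform annotation, 503 several and 8730 none. Gene names came from the TAIR10.1 gene table, which matched 13436 probe sets, while 77 kept the name of the platform annotation. For 147 genes with several probe sets the brightest on average stood for the gene, which left 13355 genes. ATM was not analysed here, and promoter and protein sequences were not used here.

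All 44 arrays in 22 groups were fitted with limma 3.58.1 in R 4.3.3 as group means (22 residual and 7.82 prior degrees of freedom), with contrasts tested by eBayes without trend and p-values adjusted by Benjamini-Hochberg over 13355 genes. No pair of arrays among 946 was identical. The labels do not say that replicates came from separate cultures, so p-values measure the spread between these samples, which may be technical, and 2 arrays a group limit the precision. The fit was tested on simulated data.

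Named genes were the 12 highest and 12 lowest called with both irradiated arrays beyond both controls, up to 4 called members of each of 35 gene lists with the largest change (every member for lists of 5 or fewer), and the 5 highest and 5 lowest of each other comparison. The comparison and lists were chosen with earlier results of these data known. Alternatives were cyclic loess, centred arrays, eBayes with trend, all probe sets, a filter on low genes, only the groups compared, a replicate block, the day 2 or both controls, and each array left out.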

Additional observations from a re-analysis of the deposited data

Results flagged for a closer look

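In 10 genes the change 12 h after HZE differed between WT and atm-1 by limma's test of the difference, which is what singled them out. The difference was positive for AT3G02840 at log2 4.19, AT4G29780 at 3.71, AT5G52050 at 3.66, AT1G19380 at 3.43 and AT2G24600 at 3.29. It was negative for 3xHMG-box2 at log2 -2.93, AT3G28320 at -2.42, AT3G19430 at -2.40, AT3G28310 at -2.21 and AT2G37470 at -2.09. Adjusted p-values of these 10 ran from 8.99e-08 to 0.00475. In AT3G28320 the irradiated atm-1 arrays stood at 8.56 and 8.68 and the irradiated WT arrays at 6.93 and 6.69, with unirradiated arrays of day 1 at 5.86 and 5.64 and 6.32 and 6.41. In AT2G37470 the same 4 groups stood at 7.88 and 8.18, 5.61 and 5.64, 7.33 and 7.11 and 6.99 and 6.81. For both genes irradiated atm-1 was above every WT array of these groups. From the day 2 controls AT4G29780 differed by log2 0.10, AT1G19380 by 1.57 and AT3G19430 by -1.67, and these 3 were not called, while the other 7 were. AT3G19430 was not called without WT HZE 12 h replicate 2, at log2 -1.94, and AT4G29780 not without atm-1 HZE 12 h replicate 2, at 2.99.

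In another 10 genes the level in WT differed between 12 h and 6 h after HZE. Higher at 12 h were AT1G06830 by log2 3.11, BCAT4 by 2.89, GSTU20 by 2.85, AT5G01740 by 2.66 and AAH by 2.33. Lower were GI at log2 -3.25, AT1G54050 at -3.06, EXPA8 at -3.03, AT5G62360 at -2.89 and AT1G15330 at -2.68. AT1G54050 had values of 8.30 and 7.55 at 6 h. It had 5.00 and 4.73 at 12 h and 5.45 and 5.54 in the day 1 control, so its 6 h arrays were those that stood apart. BCAT4 was not called without WT HZE 6 h replicate 2, at log2 2.18. The hour of sampling differs between these times as well, and cannot be told apart from time after HZE.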

How the results depend on the processing

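Each total of calls over all genes kept to within 1.5 times its value except with all probe sets, which test more features and gave 7505 calls against the day 1 control in place of 3876, 5381 against 6 h, 1254 for the genotype difference, 4983 against gamma and 4932 in atm-1, and with some arrays left out. With 1 array left out the calls ran from 2991 to 3217 against day 1, 1785 to 2157 against 6 h, 368 to 522 for the genotype difference, 1675 to 2134 against gamma and 1617 to 1683 in atm-1. With the control of day 2 in place of day 1 the sign turned for PSBW (log2 -0.043), CHIL (0.71), AT1G06000 (1.63), UGT78D1 (0.83), PRL (0.41), ICU2 (0.16), ATG8C (-0.33), ATG3 (-0.26), psbM (-0.011), nad1 (0.27), BGLU40 (0.82) and BGLU16 (-0.37). With the controls of both days it turned for AT1G06000 (0.40) and UGT78D1 (0.05). The cause was not tested. Counts within lists moved more. Falls of expansin and XTH genes went from 10 to 4 with the day 2 control, rises of plastid-encoded genes from 23 to 11 with it and to 13 with only the groups compared, and rises of autophagy genes from 3 to 5 with cyclic loess. Of values of called named genes, 60 with 1 array left out and 48 under other settings lost the call, and 620 and 918 kept direction and call. The replicate block gave 3891 calls against day 1, 2687 against 6 h, 645 for the genotype difference, 2545 against gamma and 2482 in atm-1. Same-numbered arrays did not deviate together (r from -0.17 to 0.16), so the numbers were not taken as pairs. A crossed replicate block against 6 h, chosen after seeing the data, gave 2711. RMA values carry no measure of signal over background, so the limit for dim genes is not known.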

Other observations

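WT seedlings 24 h after HZE, 6 days old and sampled at 1:09 pm, were compared in no test above, though their arrays were part of the fit. Only list means of theirs were given. The gene with the largest rise at 12 h, AT3G62550, stood at 8.66 and 8.77 at 24 h, below its 12 h arrays at 12.33 and 12.06 and above the day 2 control at 7.96 and 7.75. Rapid stress gene STZ stood at 10.99 and 10.90 at 24 h, against 11.41 and 11.34 at 12 h and 9.68 and 8.63 on day 2. The early radiation gene AT5G60250 had 7.19 and 6.88 at 24 h, below its 8.29 and 8.20 at 12 h. Mitosis gene AUR2 stood at 5.26 and 5.39 at 24 h, between its 12 h level of 4.78 and 4.53 and its day 2 level of 6.45 and 5.96.

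Cold-regulated AT4G30650 stood at 6.33 and 5.94 at 24 h, against 9.96 and 10.29 at 12 h and 5.67 and 5.37 on day 2. These values have no test of their own here.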
